A study of Homo sapiens with 24 samples.

Results

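The genes described are 29 that take part in cholesterol synthesis, in its control by sterol regulatory element-binding proteins (SREBPs), or in the fatty acid steps that SREBPs also drive. They were chosen by gene name, with no measured value in the rule. A feature carries a gene's probe on the array, and each gene was read at its brightest feature over the 24 arrays. All 29 had a named feature and all 29 passed the filter on dim genes, out of 20061 named genes and 15046 tested. The array design lists SC5D under its older name, SC5DL.

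RNA was measured in SH-SY5Y cells, an established human neuroblastoma line, in 4 groups of 6 arrays, with 1 array of each group in each of 6 experiments lettered B to G. All cells received a pCAGIG plasmid, so the control also carries a transfected vector, and RNA was taken after 24 h. The Mock group received the empty plasmid. The V21 group received the FMR1 5'UTR with 21 CGG repeats and the V79 group the one with 79 CGG repeats, while the V79_8x group is labelled V79 8x and overexpressed the 79-repeat form. The labels do not say what 8x counts. FMR1 is the gene whose expanded CGG tract underlies fragile X-associated disorders. The labels call the arrays biological replicates. They describe a single cell line under plasmid transfection and give no share of cells that took up the plasmid. In bulk RNA, a change in fewer cells and a smaller change in all cells cannot be told apart.

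Cholesterol is built from acetyl-CoA through mevalonate, isoprenoids, squalene and a series of sterols. SREBP precursors sit in the endoplasmic reticulum with SCAP, which carries them to the Golgi for cleavage when sterols are low, and INSIG proteins hold SCAP back when sterols are high. The cleaved protein enters the nucleus and raises transcription of the enzymes, so their mRNAs usually rise and fall together. SREBF2 encodes the form most tied to cholesterol and SREBF1 the forms most tied to fatty acids. Neuronal cells make sterol for their own membranes.

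Values are deposited log2 intensities, and a difference of 1 on that scale is a doubling. The 24 arrays had medians of 6.7, so levels are relative to each array's whole signal. The files carry no detection calls, and levels of different genes are not set against each other because probes differ in brightness. Precision is limited by the 6 arrays in each group. Mock D, V21 B, V21 C and V79 B stand apart: over all tested genes their median distance from their group mean was 0.178 to 0.222, against 0.058 to 0.148 on the other 20 arrays. Results are therefore given with and without these 4. Of the noradrenergic neuroblastoma markers, 10 of 12 had a feature and all 10 were above the brightness limit of 6.43. All 10 mesenchymal markers were above it too. Of 8 glial markers 6 had a feature. PMP22, S100B and ERBB3 were above the limit, and SOX10, GFAP and MBP were below it. Passing the limit therefore does not tell these cell types apart. The largest shift in the series lay elsewhere: 11 of 11 tested interferon-response genes rose in V79_8x against each other group, their mean level running from 11.32 to 12.09 there and from 8.02 to 8.75 in the others. MKI67, a proliferation marker, fell against Mock by 0.425 (adjusted p = 0.0156) and against V21 by 0.42 (adjusted p = 0.0152). Without array E of V79_8x these adjusted p were 0.0548 and 0.054, and against Mock it was 0.0542 without Mock D and 0.0501 without Mock G. From V79 the difference of MKI67 was -0.343 (adjusted p = 0.14). Without the 4 arrays MKI67 was called against V79 (-0.293, adjusted p = 0.0457), Mock (-0.375, adjusted p = 0.00351) and V21 (-0.311, adjusted p = 0.0331). It was also called against V79 with the experiment letter as a fixed block and with array weights (adjusted p = 0.0383 and 0.0109). Other settings with all 24 arrays did not call it against V79. ISL1, a neuroblast transcription factor, was the 1 of 10 noradrenergic markers called, lower than Mock by 0.238 (adjusted p = 0.0232), with 5 single arrays whose removal ended the call, the largest adjusted p being 0.0806. The part of these shifts in the results below was not tested.

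Comparing V79_8x with the other groups asks how overexpression of the 79-repeat sequence bears on the sterol programme. Read at its brightest feature, none of the 29 genes passed an adjusted p of 0.05 (limma, Benjamini-Hochberg over all genes tested) in any of the 6 comparisons. Against V79, 1.15% of all tested genes passed, against Mock 2.2% and against V21 2.86%. Most of the genes were nonetheless slightly lower in V79_8x: 22 of 29 against V79, 22 of 29 against Mock and 19 of 29 against V21. Over all tested genes the share lower was 47.85%, 45.02% and 42.6%. The median difference of the 29 was -0.048 against V79, -0.055 against Mock and -0.045 against V21, beside 0.005, 0.013 and 0.032 over all genes. The 3 comparisons share the V79_8x arrays and are not independent of each other.

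At an unadjusted p under 0.05 there were 5 of the 29 against V79 (17.2%, with 5.51% over all genes), namely FDPS, DHCR7, STARD4, ACAT2 and FASN. Against Mock there were 4 (13.8%, with 8.85% over all genes), namely IDI1, FDPS, DHCR7 and ACAT2. Against V21 there were 6 (20.7%, with 19.4% over all genes), namely FDPS, TM7SF2, EBP, DHCR7, STARD4 and ACAT2. FDPS, DHCR7 and ACAT2 thus appear in every one of the 3 and are lower in V79_8x in each. The 95% intervals are for single genes at the brightest feature and are not adjusted for the number of genes or comparisons. Dimmer features of the same genes are not covered. No interval of the 29 reached beyond 0.527 (1.44-fold) in either direction against V79, 0.688 (1.61-fold) against Mock or 0.538 (1.45-fold) against V21.

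**Figure D1:**
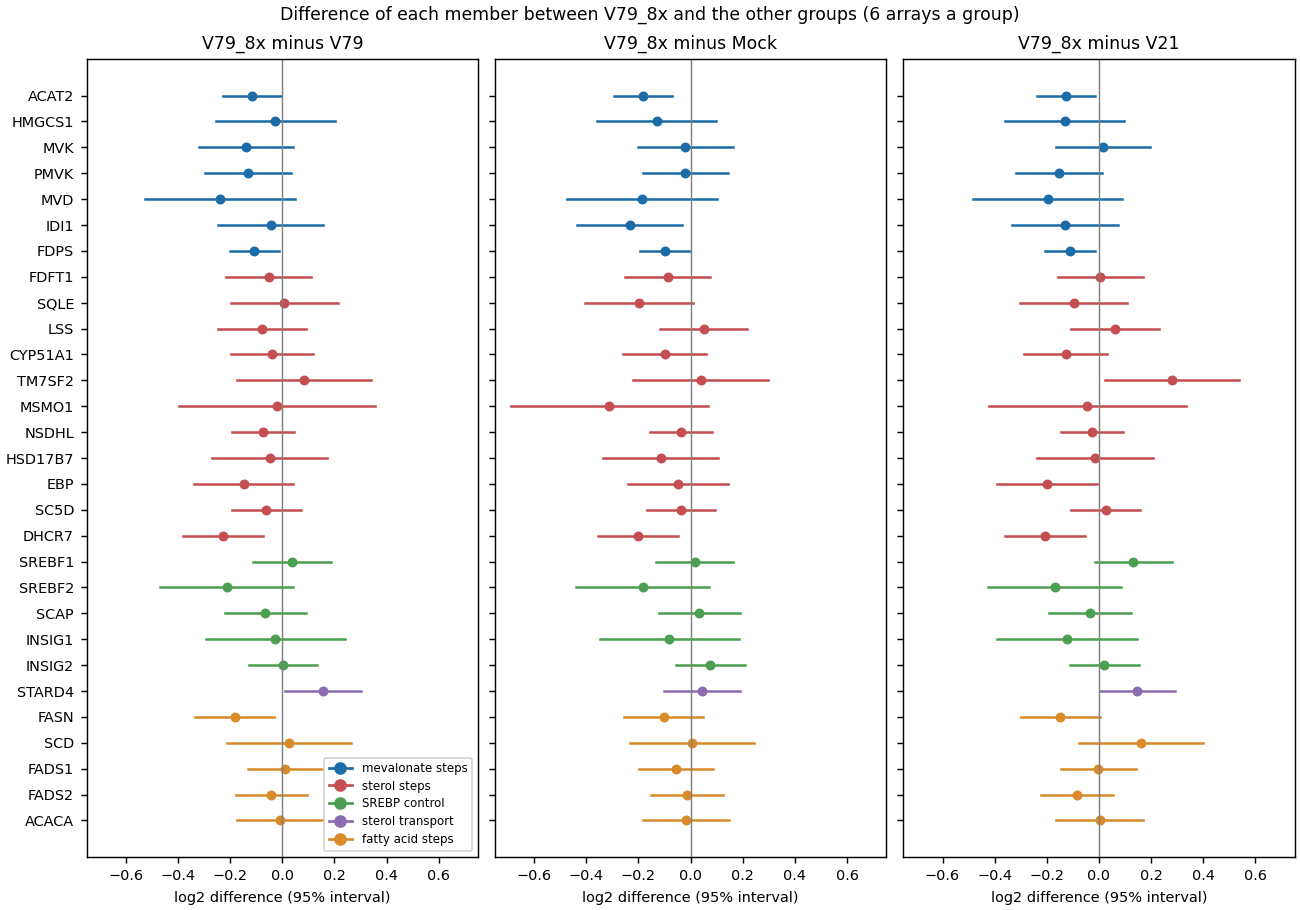
Log2 difference of each of the 29 genes between V79_8x and V79, Mock and V21, in rows ordered and coloured by role, with points for the estimate and lines for the 95% interval (6 arrays a group). The 7 mevalonate-step genes sit left of 0 in the first pair of panels, and most intervals cross 0.

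Without the 4 arrays more of the genes were lower. Against V79, 28 of 29 genes were lower in V79_8x with a median of -0.088, where 54.17% of all genes were lower; STARD4 was the exception. Against Mock 25 of 29 were lower, also with a median of -0.088 (51.97% of all genes), and against V21 22 of 29 with a median of -0.057 (48.48% of all genes). Leaving out V79 B alone also gave 28 of 29 against V79. Over all single arrays left out, the count against V79 ran from 18 to 28. Without the 4, ACAT2 (-0.201, adjusted p = 0.0172) and IDI1 (-0.268, adjusted p = 0.0433) passed the threshold against Mock, where 3.97% of all tested genes then did. None of the 29 passed against V79 or V21, beside 1.82% and 3.08% of all genes. With arrays weighted by their quality (limma's array weights, all 24 arrays), DHCR7, ACAT2 and FASN passed against V79 (adjusted p = 0.0274, 0.0413 and 0.0256), beside 3.06% of all genes. Under the same weights IDI1, SQLE, DHCR7 and ACAT2 passed against Mock, beside 6.96%, and ACAT2 against V21 (adjusted p = 0.0299), beside 3.42%. All of these were lower in V79_8x.

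**Figure D2:**
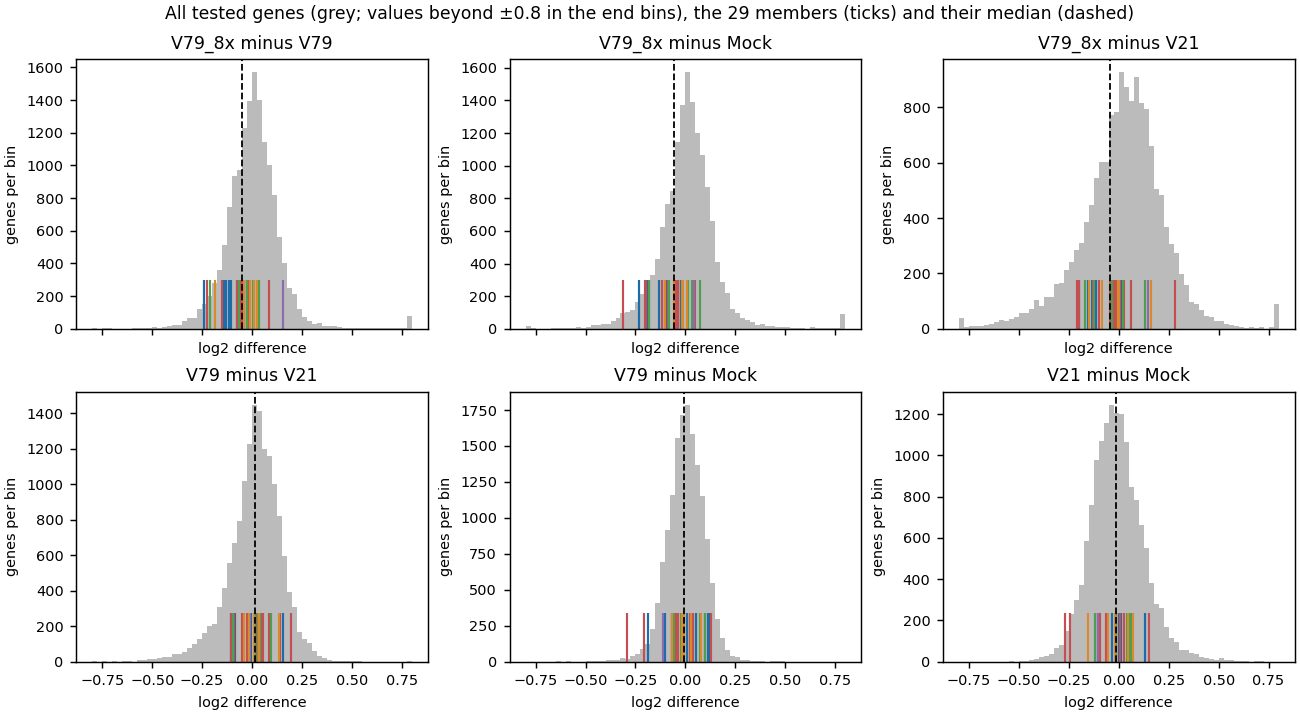
Histograms of the log2 differences of all 15046 tested genes in the 6 comparisons, with ticks for the 29 genes coloured by role and a dashed line at their median. The dashed line lies left of the peak in the 3 panels of V79_8x, at -0.048, -0.055 and -0.045, and the ticks stay within the bulk of the histogram.

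The mevalonate steps turn acetyl-CoA into farnesyl diphosphate. All 7 genes of this stretch were lower in V79_8x than in V79 and than in Mock, with medians of -0.117 and -0.13, and 6 of 7 were lower than in V21, median -0.13. None of the 7 passed the test in any comparison. The first enzyme is ACAT2, the cytosolic acetyl-CoA acetyltransferase that joins acetyl-CoA units. Its level ran from 13.36 through a median of 13.46 to 13.54 in Mock, from 13.29 through 13.40 to 13.50 in V21, and from 13.32 through 13.40 to 13.44 in V79. In V79_8x it ran from 13.16 through 13.26 to 13.40. V79_8x was the lowest group, with its upper arrays B and F reaching into the range of every other group. Against Mock the means were 13.28 ± 0.101 and 13.46 ± 0.063 (SD, n = 6 each). The difference was -0.182 ± 0.054 (SE), a ratio of 0.882, lower in 6 of 6 experiments, with adjusted p = 0.094. Against V79 the difference was -0.117 (adjusted p = 0.843) and against V21 -0.125 (adjusted p = 0.214).

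FDPS, farnesyl diphosphate synthase, makes the last isoprenoid common to sterols and to protein prenylation. Its level ran from 14.45 through 14.61 to 14.65 in Mock, from 14.50 through 14.62 to 14.67 in V21, and from 14.55 through 14.58 to 14.68 in V79. The V79_8x arrays ran from 14.43 through 14.50 to 14.53. All 6 V79_8x arrays therefore lay below all 6 V79 arrays, while Mock B and V21 D reached into the V79_8x range. FDPS was the 1 of 29 genes whose groups did not overlap against V79, where 2.06% of all tested genes did not. No gene of the 29 was free of overlap against Mock or V21, where 2.97% and 2.67% of all genes were. The difference from V79 was -0.107 ± 0.046 (SE; adjusted p = 0.755), and it was -0.098 from Mock and -0.112 from V21 (adjusted p = 0.524 and 0.199). FDPS has pseudogene copies that a probe may also read.

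The other mevalonate genes varied more between arrays. HMGCS1, which condenses acetoacetyl-CoA with acetyl-CoA, averaged 9.41 ± 0.171 in Mock and 9.41 ± 0.107 in V21, and then 9.31 ± 0.302 in V79 and 9.28 ± 0.155 in V79_8x (SD, n = 6). Its V79 mean was pulled by V79 B at 8.71, since the other 5 arrays of that group lay between 9.33 and 9.51. MVD, the decarboxylase that yields isopentenyl diphosphate, spread widest in V79, from 8.51 to 9.60, and averaged 8.97 ± 0.388 there and 8.73 ± 0.21 in V79_8x. Mevalonate kinase MVK averaged 13.23 ± 0.117 in V79 and 13.09 ± 0.163 in V79_8x, near its Mock mean of 13.11. PMVK, the kinase after it, averaged 12.68 ± 0.121 in Mock and 12.81 ± 0.134 in V21, against 12.79 ± 0.148 in V79 and 12.66 ± 0.126 in V79_8x. IDI1, the isomerase that makes dimethylallyl diphosphate, stepped from 10.89 ± 0.135 in Mock to 10.78 ± 0.24 in V21, 10.70 ± 0.158 in V79 and 10.65 ± 0.126 in V79_8x. Neighbours in that order differ by less than their spread.

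The sterol steps run from squalene to cholesterol. Of their 11 genes 9 were lower in V79_8x than in V79 (median -0.052), 9 than in Mock (median -0.088) and 7 than in V21 (median -0.025), and none passed the test. DHCR7 reduces 7-dehydrocholesterol to cholesterol and is the gene lost in Smith-Lemli-Opitz syndrome. It ran from 13.46 through 13.59 to 13.79 in Mock, from 13.46 through 13.58 to 13.76 in V21, and from 13.53 through 13.60 to 13.85 in V79. Among V79_8x arrays it lay from 13.28 through 13.33 to 13.66. V79_8x arrays C, D, E and G lay below every array of the other 3 groups, and B and F lay among them. The difference from V79 was -0.227 ± 0.075 (SE), a ratio of 0.855, lower in 6 of 6 experiments, with adjusted p = 0.309. From Mock it was -0.203 (adjusted p = 0.265) and from V21 -0.208 (adjusted p = 0.143).

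TM7SF2, a sterol C14 reductase, went the other way. It ran from 10.24 through 10.58 to 10.71 in Mock, from 9.86 through 10.36 to 10.62 in V21, and from 9.88 through 10.58 to 10.70 in V79. In V79_8x it ran only from 10.47 through 10.57 to 10.65. The low ends of the other groups are Mock D, V21 C and V79 B, 3 of the 4 arrays that stand apart. The difference from V21 was 0.28 ± 0.125 (SE; adjusted p = 0.228), and without the 4 arrays it was 0.122. From V79 it was 0.083 and from Mock 0.038, and each turned negative without the 4 arrays, at -0.037 and -0.019. TM7SF2 has 10 features on the array, whose changes from array to array differed by a median SD of only 0.037 within an array. The pull of these arrays on TM7SF2 is thus seen in repeated probes and not in 1 spot.

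Among the rest, EBP, the sterol isomerase, averaged 13.79 ± 0.244 in Mock and 13.94 ± 0.131 in V21, against 13.89 ± 0.113 in V79 and 13.74 ± 0.119 in V79_8x. SQLE, squalene epoxidase, averaged 11.51 ± 0.139 in Mock and 11.41 ± 0.192 in V21, and 11.30 ± 0.143 and 11.31 ± 0.215 in V79 and V79_8x. NSDHL, a decarboxylating sterol dehydrogenase, held within 12.83 to 12.88 over the 6 V79_8x arrays, a range that lies inside those of V21 and Mock. FDFT1, which makes squalene, had group means from 13.24 to 13.33. LSS, which closes squalene into lanosterol, had group means from 11.56 to 11.69, and CYP51A1, the lanosterol demethylase, from 11.41 to 11.53. SC5D, the desaturase before DHCR7, ran from 7.06 to 7.14 in group means. HSD17B7, a 3-ketosterol reductase, averaged between 9.10 and 9.21; it has a near-identical pseudogene copy, and its 14 features may read both. MSMO1, the methylsterol monooxygenase, averaged 7.74 ± 0.619 in Mock because Mock C read 8.96 at the chosen feature. The other 5 Mock arrays read 7.30 to 7.75 there, and on the other 9 features of MSMO1 array C read 7.34 to 7.96.

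**Figure D3:**
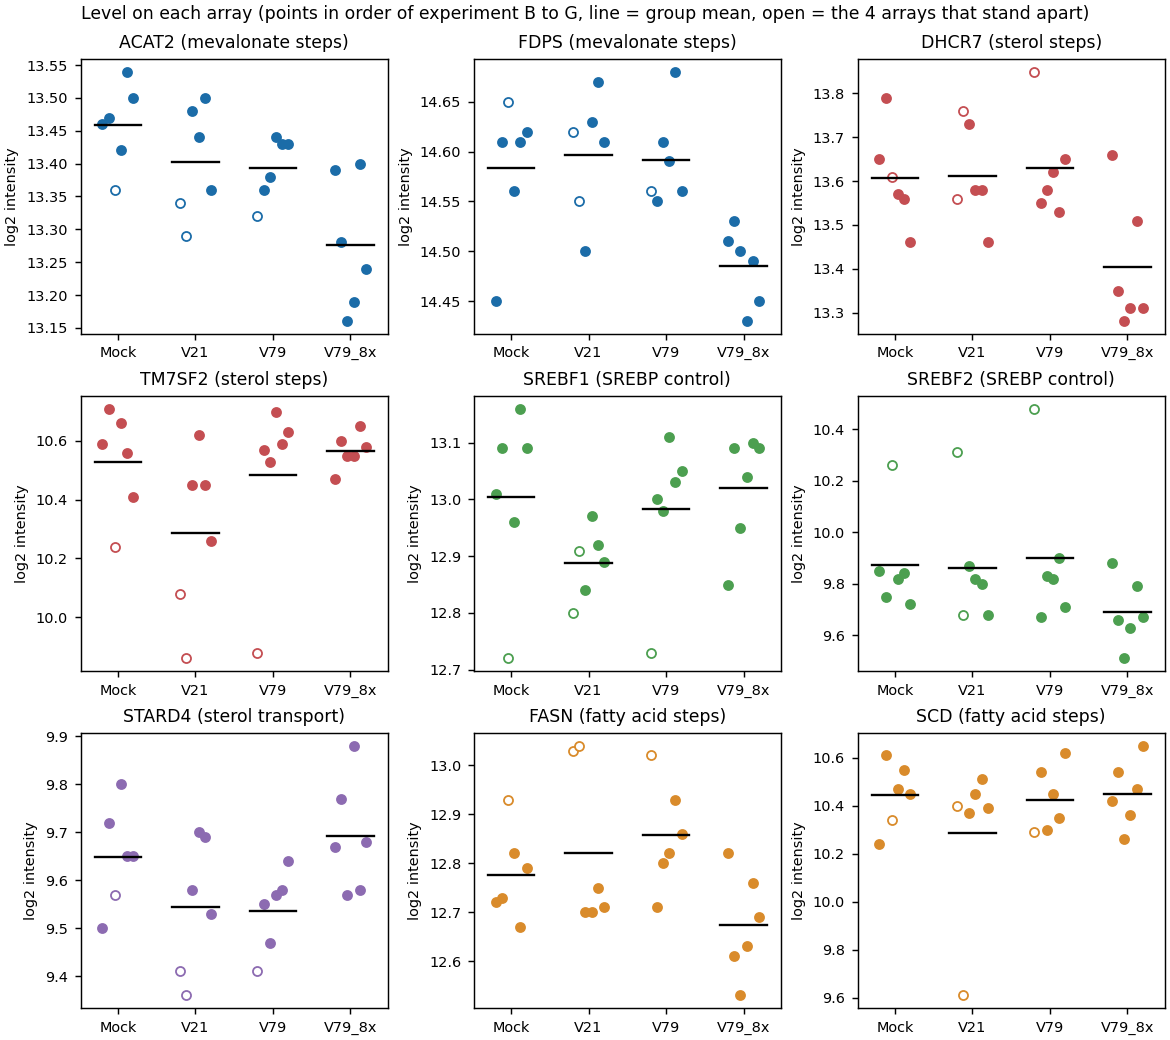
Log2 intensity of the 9 genes described array by array, with points for single arrays in order of experiment, open points for Mock D, V21 B, V21 C and V79 B, and a line for the mean of 6. For FDPS all V79_8x points lie below all V79 points. Open points set the low ends of Mock, V21 and V79 for TM7SF2 and their high ends for SREBF2. For SCD they set the low ends of V21 and V79 only.

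Of the 5 SREBP control genes, 3 were lower in V79_8x than in V79, 2 than in Mock and 3 than in V21, and none passed the test. Without the 4 arrays 5 of 5 were lower than in V79 (median -0.075), 3 than in Mock (median -0.042) and 2 than in V21 (median 0.008). SREBF2, the cholesterol-linked SREBP, ran from 9.72 through 9.83 to 10.26 in Mock, from 9.68 through 9.81 to 10.31 in V21, and from 9.67 through 9.83 to 10.48 in V79. V79_8x gave values from 9.51 through 9.67 to 9.88. Its 3 highest readings fell on V79 B, V21 B and Mock D, and the groups overlap. The difference from V79 was -0.212 ± 0.123 (SE; adjusted p = 0.98), from Mock -0.183 (adjusted p = 0.828) and from V21 -0.17 (adjusted p = 0.425). Without the 4 arrays these were smaller, at -0.096, -0.106 and -0.102.

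SREBF1, the fatty acid-linked SREBP, ran from 12.72 through 13.05 to 13.16 in Mock, from 12.80 through 12.90 to 12.97 in V21, and from 12.73 through 13.02 to 13.11 in V79. Its V79_8x readings were from 12.85 through 13.07 to 13.10. V21 was the lowest group, and V79_8x was above V21 in 6 of 6 experiments, by 0.132 ± 0.072 (SE; adjusted p = 0.301). From V79 and Mock it differed by 0.037 and 0.015 (adjusted p = 0.98 and 0.994), and by -0.014 and -0.042 without the 4 arrays. A second feature of SREBF1 went against the first: averaging both features turned the differences to -0.105, -0.111 and -0.173 from V79, Mock and V21. That feature read 9.92 to 10.36 on the 4 arrays that stand apart and 8.51 to 9.39 on the other 20. SCAP, the escort, had group means from 11.70 to 11.80. INSIG1, itself an SREBP target and a retention factor, averaged 9.63 ± 0.382 in Mock and 9.67 ± 0.151 in V21, against 9.57 ± 0.185 in V79 and 9.54 ± 0.125 in V79_8x, with Mock D at 8.91. Its difference of V79_8x from Mock was -0.082, and -0.225 (adjusted p = 0.0911) without the 4 arrays. INSIG2, the second retention factor, averaged 9.37 in Mock and 9.42 to 9.44 in the other groups.

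Promoter windows, from 250 bases before to 50 after the gene start, were held for 25 of the 29 genes in RefSeq's GRCh38.p14 tables. ACAT2, FASN, FDFT1 and SQLE had none there. The sequences below are shown because SREBPs and their partner NF-Y act through short elements of these kinds. Whether either binds these stretches was not tested. Capitals mark the motif, and each is written 5' to 3' on the gene's strand. The SRE-like motif TCACNCCAC, read on both strands, occurred in 1 of 25 windows (4.0%, with 1.4% of 27305 genes), that of SREBF2 itself, 133 bases before the start at chr22:41832962-41832990 (plus strand).
SREBF2, SRE-like: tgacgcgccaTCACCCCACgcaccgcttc
SREBF2, CCAAT box on the opposite strand: tcgctcgcccATTGGctgagatgag
FDPS, CCAAT box: cggccagcagCCAATcagcgcggct
DHCR7, CCAAT box: ggctcctcgaCCAATcacggggcgc
STARD4, CCAAT box: cccgcgccagCCAATccgaacaagc

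These CCAAT boxes lie 106, 122, 94 and 130 bases before the starts of SREBF2 (chr22:41832989-41833013, plus strand), FDPS (chr1:155308734-155308758, plus strand), DHCR7 (chr11:71448473-71448497, minus strand) and STARD4 (chr5:111512651-111512675, minus strand). CCAAT, on either strand, was in 19 of the 25 windows (76.0%, with 39.7% of all genes). The GC box GGGCGG was in 24 of 25 (96.0%, with 48.3%), all but NSDHL. The E-box CACGTG was in 4 (16.0%, with 8.8%), those of INSIG1, LSS, SC5D and SCAP. No motif searched is contained in another; many promoters of widely expressed genes hold CCAAT and GC boxes, and a match of letters is not a bound site.

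STARD4, a carrier that moves cholesterol between membranes, was the only sterol transport gene and the clearest one higher in V79_8x. It ran from 9.50 through 9.65 to 9.80 in Mock, from 9.36 through 9.56 to 9.70 in V21, and from 9.41 through 9.56 to 9.64 in V79. The range in V79_8x was from 9.57 through 9.68 to 9.88. In V79_8x, 4 arrays lay above every V79 array, while Mock covered most of the V79_8x range. The difference from V79 was 0.155 ± 0.07 (SE), higher in 5 of 6 experiments, with adjusted p = 0.813. From V21 it was 0.147 (adjusted p = 0.252) and from Mock 0.043 (adjusted p = 0.973). Without the 4 arrays the difference from V21 was 0.067.

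Of the 5 genes of the fatty acid steps, 3 were lower in V79_8x than in V79, 4 than in Mock and 3 than in V21, with medians of -0.008, -0.017 and -0.002. Without the 4 arrays these were 5, 5 and 3 of 5, with medians of -0.054, -0.067 and -0.014. FASN, fatty acid synthase, ran from 12.67 through 12.76 to 12.93 in Mock, from 12.70 through 12.73 to 13.04 in V21, and from 12.71 through 12.84 to 13.02 in V79. In V79_8x it ran from 12.53 through 12.66 to 12.82. The 3 highest readings of FASN are V21 C, V21 B and V79 B, and Mock D and V79 F share the next place. The difference from V79 was -0.183 ± 0.074 (SE), lower in 6 of 6 experiments, with adjusted p = 0.638. From Mock it was -0.103 (adjusted p = 0.85) and from V21 -0.148 (adjusted p = 0.265), and without the 4 arrays the last was -0.042.

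SCD, the desaturase that makes oleate, ran from 10.24 through 10.46 to 10.61 in Mock, from 9.61 through 10.40 to 10.51 in V21, and from 10.29 through 10.40 to 10.62 in V79. The V79_8x arrays ran from 10.26 through 10.45 to 10.65. Apart from V21 C at 9.61, the groups lie over each other. The differences of V79_8x were 0.025 from V79, 0.007 from Mock and 0.162 from V21 (adjusted p = 0.991, 0.998 and 0.415); the differences from V79 and Mock changed sign when single arrays were left out. FADS1 and FADS2, desaturases of polyunsaturated fatty acids, had group means from 13.27 to 13.34 and from 14.20 to 14.28. ACACA, the acetyl-CoA carboxylase that commits carbon to fatty acids, had means from 12.27 to 12.28 at its brightest feature, the narrowest span of the 29. A dimmer second feature of ACACA differed. It ran from 8.49 to 8.80 in Mock and from 8.27 to 8.47 in V79_8x without overlap, while V21, from 8.42 to 8.79, and V79, from 8.33 to 8.58, overlapped both. The difference of V79_8x from Mock was -0.29 ± 0.074 (SE; adjusted p = 0.0339 over 27190 features), the 1 called of 64 tested features of the 29 genes, where 2.08% of all features were. From V21 it differed by -0.217 (adjusted p = 0.129) and from V79 by -0.085. The call against Mock held without the 4 arrays (-0.273, adjusted p = 0.0152). It was lost under the fixed replicate block (adjusted p = 0.0577) and when Mock D, F or G or V79_8x B, E, F or G alone was left out (adjusted p up to 0.102).

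The comparisons among the other 3 groups set the 79-repeat form, the 21-repeat form and the empty plasmid against each other. Between V79 and V21 none of the 29 passed, where 0.00665% of all tested genes did, and none had an unadjusted p under 0.05; 13 of 29 were lower in V79, median 0.017. Between V79 and Mock none passed, again beside 0.00665%, and 1 had an unadjusted p under 0.05, SQLE; 15 of 29 were lower, median -0.008. Between V21 and Mock none passed, beside 0% of all genes, and none had an unadjusted p under 0.05; 17 were lower, median -0.013. The widest 95% bounds were 0.455, 0.668 and 0.643, or 1.37-fold, 1.59-fold and 1.56-fold.

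The 18 mevalonate and sterol enzymes were also averaged on each array, as the deviation of each gene from its own mean over 24 arrays. The average ran from -0.119 through 0.04 to 0.16 in Mock, from -0.073 through 0.001 to 0.094 in V21 and from -0.157 through 0.049 to 0.078 in V79. Among V79_8x arrays it lay from -0.119 through -0.07 to 0.017. The lowest array of Mock was D and of V79 was B, both among the 4 that stand apart, as are the lowest pair of V21. Without them V79 ran from 0.016 to 0.078, and only array F of V79_8x, at 0.017, reached that range.

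**Figure D4:**
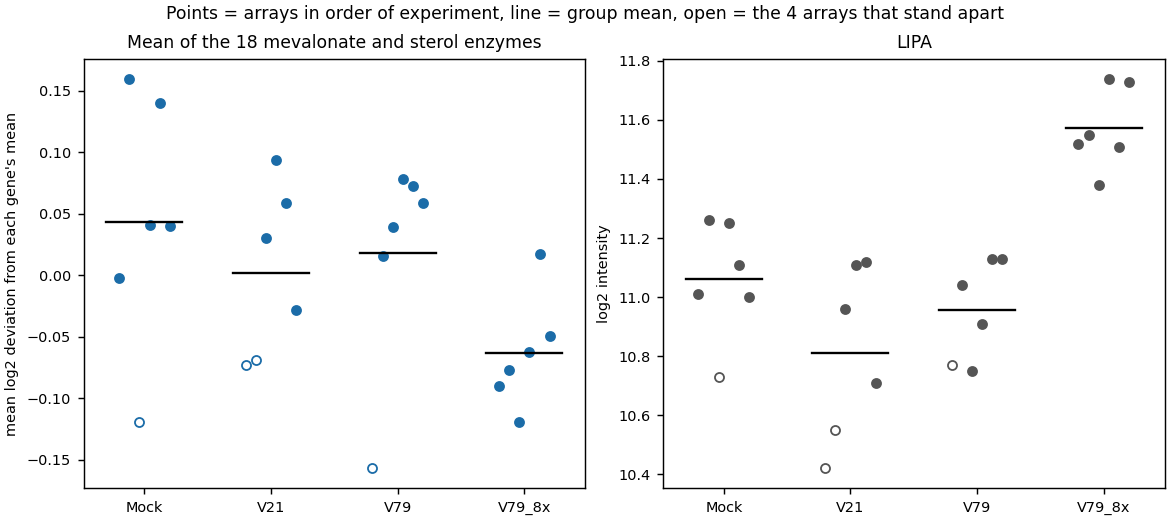
Left, the mean log2 deviation of the 18 mevalonate and sterol enzymes on each array; right, the log2 intensity of LIPA; open points are Mock D, V21 B, V21 C and V79 B, and lines are means of 6. The enzyme mean of V79_8x lies at -0.063 with groups overlapping, while all LIPA readings in V79_8x, 11.38 to 11.74, lie above all others.

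Genes near the pathway were read from 4 related lists. Of 14 lipogenic and SREBP-linked genes, ACACB, the acetyl-CoA carboxylase tied to fatty acid oxidation, rose in V79_8x against Mock by 0.257 ± 0.068 (SE; adjusted p = 0.0439), and none of the 14 was called against V79 or V21. That call was lost when Mock C, Mock D or any of several other single arrays was left out (adjusted p up to 0.119) and when features were averaged (0.132, adjusted p = 0.559). It was also lost under the fixed replicate block, renewed quantile normalisation, a trended robust prior and array row as a covariate (adjusted p = 0.0843, 0.0788, 0.0609 and 0.0529). Against V21 ACACB differed by 0.178 (adjusted p = 0.166), and it passed without the 4 arrays (0.239, adjusted p = 0.0364), without V21 C alone (0.234, adjusted p = 0.0317) and with array weights (0.235, adjusted p = 0.02). Of 9 tested genes (11 listed) for SREBP cleavage and for degradation of sterol enzymes none was called, and of 11 genes of the isoprenoid branches (prenylation, dolichol, ubiquinone) none was called. Without the 4 arrays, 1 isoprenoid-branch gene was called against Mock, where 3.97% of all tested genes were called. Of 16 tested genes (19 listed) of sterol handling and the sterol sensor LXR, 1 was called in each V79_8x comparison. This was LIPA, the lysosomal acid lipase that frees cholesterol from its esters.

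LIPA ran from 10.73 through 11.06 to 11.26 in Mock, from 10.42 through 10.84 to 11.12 in V21, and from 10.75 through 10.98 to 11.13 in V79. V79_8x gave values from 11.38 through 11.54 to 11.74. Its V79_8x arrays did not overlap any other group. LIPA rose by 0.617 ± 0.117 (SE) against V79, a ratio of 1.53, by 0.512 against Mock and by 0.76 against V21 (adjusted p = 0.00289, 0.0138 and 0.000137), higher in 6 of 6 experiments each time. Every alternative run kept these calls, with differences from 0.446 to 0.822. The interferon-response genes rose in the same arrays; their part in the LIPA result was not tested.

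**Figure D5:**
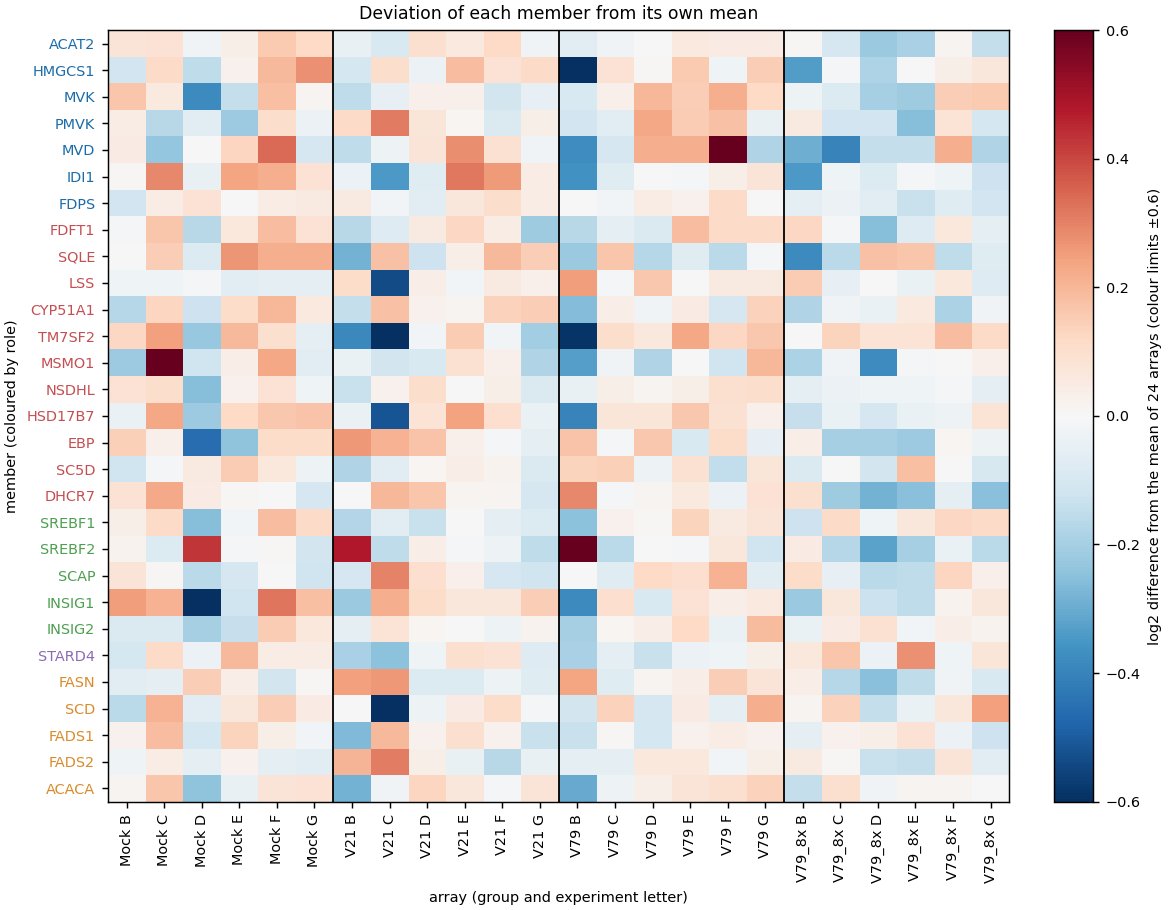
Deviation of each of the 29 genes (rows, coloured by role) from its mean of 24 arrays (columns, by group and experiment letter), with red higher and blue lower and colours held at 0.6. Many of the strongest cells fall on the 4 arrays that stand apart, such as SREBF2 high at 10.48 and TM7SF2 low at 9.88 on V79 B; MSMO1 on Mock C and MVD on V79 F are strong cells elsewhere, and the V79_8x columns are mostly pale.

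How far the genes moved together was described by correlating their deviations from the group means. Over 24 arrays the 406 pairs of the 29 genes had a median r of 0.18, beside 0.04 for pairs of all tested genes, and 18.2% of pairs were above 0.5, beside 16.9%. Over the 20 arrays without the 4 the median was 0.14 beside 0.02, and 16.3% were above 0.5, beside 10.01%. Points share arrays and their normalisation, so these are descriptions. The 4 arrays weigh on them: 21 of the 29 genes have their most extreme reading on 1 of the 4. These arrays were set apart by their deviations over all tested genes. The same count was not taken over all genes, so it is not a trait of the 29. SREBF2 correlated positively with 4 of the 18 enzymes over 24 arrays (median r -0.27) and with 12 of 18 over 20 arrays (median r 0.23). SREBF1 did so with 16 (median r 0.45) and with 15 (median r 0.23).

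The genes most like the mean of the 18 enzymes, over 24 arrays with group means removed, were SLC6A12, NCALD, MANEA, BNIP1, MTNAP1, POP4, RPS15A and KLHDC8B, with r from 0.92 to 0.94. Over the 20 arrays their r was 0.76 to 0.88. The 29 genes themselves were left out of this ranking. None of the genes named is in the 4 related lists.

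The experiment letter was also set beside the group as a term. None of the 29 was called by it, beside 0.0199% of all tested genes, and 7 of the 29 had an unadjusted p under 0.05, where 14.9% of all genes did. MVD and HMGCS1 came first among the 29 (adjusted p = 0.169 for both). Without the 4 arrays, 4 of the 29 had an unadjusted p under 0.05, where 10.8% of all genes did. The adjusted p of MVD and HMGCS1 was then 0.325 for both. HMGCS1 averaged 0.299 below its group means in experiment B and was the lowest array of its group there in 3 of 4 groups, and MVD was highest in experiment F in 3 of 4.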

How the data were processed

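Each sample was hybridised to a 1-colour array (Cy3, 100 ng RNA), per the labels' protocols. The authors' deposited log2 intensities were used as they stand; the sorted values of the 24 arrays differ by at most 0.01, and their background correction and normalisation method were not given in the sources used here. Array names write V80 where the labels write V79 and V80x2 where they write V79 8x. The labels were followed. Array row was read from the number pair that ends each array name. What that pair means is not given, so its reading as a row is assumed. Of 62976 features, 37051 carry 1 gene; 33702 of these were named by accession, 2664 by current symbol, 644 by former symbol and 41 kept the platform's name. The brightest feature stood for a gene, and the dimmest 25% of genes were left out. All 24 arrays entered 1 limma 3.58.1 fit (R 4.3.3) of 4 groups without covariates, two-sided, with Benjamini-Hochberg adjustment over 15046 genes. The test was checked on simulated data. The genes and lists were chosen with earlier results of these data known. All 29 genes are named; per-array values are given for the 2 genes of each role with the smallest p in any comparison. From related lists, genes past the threshold in the unweighted fit of all 24 arrays are named. The experiment-letter test, the correlations over 20 arrays and the alternatives for the second ACACA feature were added after seeing the data. Experiment letters come from the sample titles. Same-letter arrays of V79_8x and Mock deviated together (r 0.182 to 0.57), but over all comparisons r ran from -0.658 to 0.766.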

Additional observations from a re-analysis of the deposited data

Results flagged for a closer look

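Among 116 sets of 6 arrays (29 genes in 4 groups), 16 held 1 array set apart from the other 5 by a gap of more than 0.625 of the whole range; chance gives about 1 in 20. Of these, 14 fall on arrays that stand apart over all genes. On V79 B, HMGCS1 read 8.71, IDI1 10.39, TM7SF2 9.88, HSD17B7 8.74 and SREBF1 12.73, each below the other 5 arrays of its group, while SREBF2 read 10.48, above the other 5. SREBF2 was also high on Mock D, at 10.26, and on V21 B, at 10.31. NSDHL was low on Mock D, at 12.63. INSIG1 read 9.38 and ACACA 11.99 on V21 B, both low. On V21 C the low readings were LSS at 11.07, HSD17B7 at 8.62 and SCD at 9.61. The other 2 are IDI1 on V79_8x B, low at 10.41 where the rest of the group read 10.63 to 10.74, and MSMO1 on Mock C, high at 8.96.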

How the results depend on the processing

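The count of the 29 genes called was 0 in every comparison under the replicate block (experiment letter fixed or random), other filters on dim genes, averaged features, 2-group fits, renewed quantile normalisation, a trended robust prior, array row as a covariate and each array left out, where it ran from 0 to 0. With array weights it was 3 against V79, 4 against Mock and 1 against V21, beside 3.06%, 6.96% and 3.42% of all genes, and without the 4 arrays it was 2 against Mock, beside 3.97%; in the other comparisons both settings gave 0. The smallest adjusted p of the 29 against Mock was 0.094 in the main fit and 0.0921 under the fixed replicate block. Over all settings that called none against Mock it ran from 0.0502 with renewed quantile normalisation to 0.233 without V79_8x D. Among such settings the lowest against V79 and V21 were 0.066 and 0.0568, both without V79_8x B. Without the 4 arrays the difference of V79_8x turned sign for 6 of the 29 genes against V79, 3 against Mock and 7 against V21. Among the 9 genes described array by array, the following turned sign under some alternative, none of them past the threshold in either setting. TM7SF2 from V79 was -0.024 with array weights and -0.037 without the 4 arrays or V79 B alone, and from Mock -0.019 without the 4 or Mock D alone. SREBF1 with averaged features was -0.105 from V79, -0.111 from Mock and -0.173 from V21; from V79 it was -0.014 without the 4 or V79 B, and from Mock -0.031 with array weights, -0.042 without the 4 or Mock D, and -0.001 without V79_8x F. SCD from V79 was -0.002 without the 4 or V79 B and -0.015 without V79_8x G; from Mock it was -0.014 without the 4 or Mock D, -0.034 without Mock B, -0.011 without V79_8x C and -0.033 without V79_8x G. Over single arrays left out, TM7SF2 ran up to 0.127 from V79 and 0.075 from Mock, SREBF1 up to 0.071 and 0.049, and SCD up to 0.064 and 0.045, their lowest values being those above. The cause was not tested. Signal over background is unknown here, which limits what can be said of dim genes such as SC5D and MSMO1.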

Other observations

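INSIG2 has a second feature that moved more than its brightest one. It read 7.65 on V21 B, 7.09 on V21 C, 7.71 on V79 B and 8.13 on Mock D, and 8.34 to 8.90 on the other 20 arrays. The brightest INSIG2 feature ran from 9.22 to 9.61 over all 24. Between V79_8x and V21 the second feature differed by 0.485 ± 0.237 (SE; adjusted p = 0.261) and the brightest by 0.02.

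Of the 10 genes of G2 and mitosis, 10 were lower in V79_8x than in Mock (median -0.164) and 9 than in V79 (median -0.113), and 7 than in V21 (median -0.115); the share of all genes lower was 45.02%, 47.85% and 42.6%. MKI67 was the 1 called against Mock and against V21 in this main fit. Without the 4 arrays that stand apart, 10 of 10 were lower in each comparison. The medians were then -0.198 against Mock, -0.164 against V79 and -0.138 against V21. The share of all genes lower was 51.97%, 54.17% and 48.48%. Of the 10 genes, 3 were then called against Mock, 1 against V79 and 1 against V21, beside 3.97%, 1.82% and 3.08% of all genes.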
